A study of Mus musculus with 10 samples.

Results

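The methylation of Mest, Kcnq1ot1, Abt1, Tcf7l1 and Pou5f1 was followed along the whole genes in spermatozoal DNA, measured by reduced representation bisulfite sequencing (RRBS). In RRBS the enzyme MspI cuts DNA at CCGG, short fragments are treated with bisulfite and sequenced, and each CpG receives a number of methylated and unmethylated reads. These 5 genes were also examined by pyrosequencing in the same study, Kcnq1ot1 under the name Lit1, Pou5f1 under the name Oct4 and Tcf7l1 under the name Tcf3, each in a single short amplicon. Every CpG from 2 kb upstream of the gene start to the gene end with at least 10 reads in an animal, strands summed, was taken. This gave 325 of the 1342754 CpGs of the whole data set, namely 23 in Mest, 22 in Kcnq1ot1, 19 in Abt1, 243 in Tcf7l1 and 18 in Pou5f1. In all 10 animals 224 of them were covered, 13, 19, 19, 157 and 16 in the same order.

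All animals were C57Bl/6 males or their male descendants. In the P-generation, 2 males (C8 and C14) received the vehicle, 7.5% DMSO, and 3 males (D10, D11 and D13) received decitabine in the same vehicle, 0.1 µg per g body weight, injected intraperitoneally 3 times a week over 7 weeks, beginning at 7 weeks of age. The F3-generation was not injected, and comprised 2 descendants of vehicle-treated males (F3C9 from C8, F3C30 from C14) and 3 descendants of decitabine-treated males (F3D1 and F3D31 from D10, F3D7 from D11), so that F3D1 and F3D31 share an ancestor and D13 has no descendant here. Organs were removed at 14 to 15 weeks. Each animal is 1 library, and spermatozoa of both epididymides of 1 male were used. P-generation males without any injection were not analysed here.

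DNA methylation is the addition of a methyl group to cytosine, mostly at CpG dinucleotides, and decitabine is a deoxycytidine analogue that traps DNA methyltransferases once it is built into DNA. Mest, which codes for a protein of the hydrolase fold, and Kcnq1ot1, a long noncoding RNA that lies antisense within Kcnq1 and silences neighbouring genes on the same chromosome, are imprinted genes expressed from the paternal allele. Their imprinting control regions carry methylation on the maternal allele and are known to be unmethylated in spermatozoa. Abt1 codes for a nuclear protein that binds the TATA-binding protein, Tcf7l1 for a factor of the TCF/LEF family that binds DNA and β-catenin at the end of the Wnt pathway, and Pou5f1 for the transcription factor of pluripotent cells and the germ line, which is silent in differentiated tissues.

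In mm10 with GENCODE annotation, Mest (ENSMUSG00000051855.15) lies on the plus strand at chr6:30723547-30748465, Kcnq1ot1 (ENSMUSG00000101609.2) on the minus strand at chr7:143203458-143296549 and Abt1 (ENSMUSG00000036376.3) on the minus strand at chr13:23418361-23423866. Tcf7l1 (ENSMUSG00000055799.13) lies on the minus strand at chr6:72626378-72789254 and Pou5f1 (ENSMUSG00000024406.16) on the plus strand at chr17:35506018-35510772. Distances given below in bp or kb are counted from the annotated gene start in the direction of transcription. CpGs covered in all 10 animals, at most 300 bp apart and at least 3 in number, were joined into blocks, of which Tcf7l1 had 18, Pou5f1 4, Mest 2 and Kcnq1ot1 and Abt1 1 each. Blocks are named here by the distance of their centre from the gene start.

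The stretches on which the results below rest are shown on the plus strand of mm10 with every CpG in capitals, beginning with the pyrosequenced Lit1 stretch (chr7:143295364-143295496), the Mest blocks at 9.29 kb (chr6:30732799-30732880) and 15.75 kb (chr6:30739252-30739336) and the Pou5f1 blocks at 1.28 kb (chr17:35507254-35507347) and 2.15 kb (chr17:35508151-35508191). They are followed by the Tcf7l1 block at 154.87 kb (chr6:72634364-72634406), whose groups lay apart in both generations.
Lit1 amplicon: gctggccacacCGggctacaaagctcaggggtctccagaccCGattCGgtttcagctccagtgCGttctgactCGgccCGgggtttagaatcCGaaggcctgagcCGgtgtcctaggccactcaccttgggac
Mest 9.29 kb block: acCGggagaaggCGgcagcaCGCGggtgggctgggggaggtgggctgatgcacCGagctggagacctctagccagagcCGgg
Mest 15.75 kb block: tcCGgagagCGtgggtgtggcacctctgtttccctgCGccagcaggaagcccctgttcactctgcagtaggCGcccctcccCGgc
Pou5f1 1.28 kb block: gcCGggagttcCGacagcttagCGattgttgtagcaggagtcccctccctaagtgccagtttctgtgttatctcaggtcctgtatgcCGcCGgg
Pou5f1 2.15 kb block: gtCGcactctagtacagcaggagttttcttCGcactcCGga
Tcf7l1 154.87 kb block: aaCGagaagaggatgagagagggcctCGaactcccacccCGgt

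The coverage summed over all CpG cytosines, in which a read counts once for each cytosine it spans, was between 48903817 in D13 and 115158278 in F3D1. The median was 28 to 63 reads per cytosine that had at least 10. Of the CpGs of the 5 genes, between 250 (C8) and 300 (F3C9) reached 10 reads in an animal. Reads carried no molecular identifiers, so intervals and limits given here cover counting error only, and CpGs of 1 block largely share reads. The labels name the strain only, and the cell type was checked at imprinted regions. The H19 upstream region, which is methylated in spermatozoa, was methylated at 84.6 to 100% (2 CpGs), while Peg3 (5 CpGs) and Peg10 (12 CpGs), which are unmethylated in spermatozoa and intermediate in somatic tissue, showed 5.11 to 36.9% and 3.52 to 25.5%. Both maxima were in C8, the second highest Peg10 level was 23.5% in D11, and Plagl1 had no covered CpG. C8 is one of only 2 vehicle-treated males, and the main P differences that rest on it are given below also without it. Among all 72858 blocks of the data set C8 was the single highest animal in 24.9% and the single lowest in 22.5% of the blocks that had such an animal, and among the 26 blocks of the 5 genes it was highest in 5 and lowest in 6.

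Of the 5 amplicons, only that of Lit1 could be read by RRBS. All 8 CpGs of it had at least 10 reads in every animal, whereas no CpG was covered in the amplicons of Mest (6 CpGs, chr6:30736930-30737118), Abt1 (4 CpGs, chr13:23422611-23422709), Tcf7l1 (15 CpGs, chr6:72627507-72627749) and Pou5f1 (6 CpGs, chr17:35505822-35506018). In the reference the Mest amplicon lies within a single MspI fragment of 961 bp and the Abt1 amplicon within one of 1437 bp, both longer than the 280 bp limit of the selected inserts. The Pou5f1 amplicon lies within a fragment of 266 bp and the Tcf7l1 amplicon spans fragments of 242, 8 and 346 bp. The levels reported by pyrosequencing and those reported here for these 4 genes therefore concern different CpGs. Along the genes, 11.8% of the reference CpGs of Abt1, 14.5% of Pou5f1, 9.57% of Tcf7l1, 5.20% of Mest and 3.61% of Kcnq1ot1 were covered in at least 1 animal.

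The 5 genes differed strongly from each other. The mean methylation level over 10 animals was 0.498% in Abt1, 26.9% in Kcnq1ot1, 30.4% in Mest, 49.6% in Tcf7l1 and 51.5% in Pou5f1, against a median of 14.4% over all 21469 gene regions with at least 5 covered CpGs. Of the 224 CpGs, 112 (50%) had a mean level under 20%, 77 (34.4%) one over 80% and 35 (15.6%) one in between. For all 904364 CpGs covered in the 10 animals these shares were 66.1, 22.5 and 11.4%. All 19 CpGs of Abt1 and 15 of 19 of Kcnq1ot1 were below 20%, Tcf7l1 was divided into 67 low and 68 high CpGs, and Pou5f1 stood out with 10 of 16 CpGs in between. Mest had 8 low, 3 intermediate and 2 high CpGs.

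**Figure D1:**
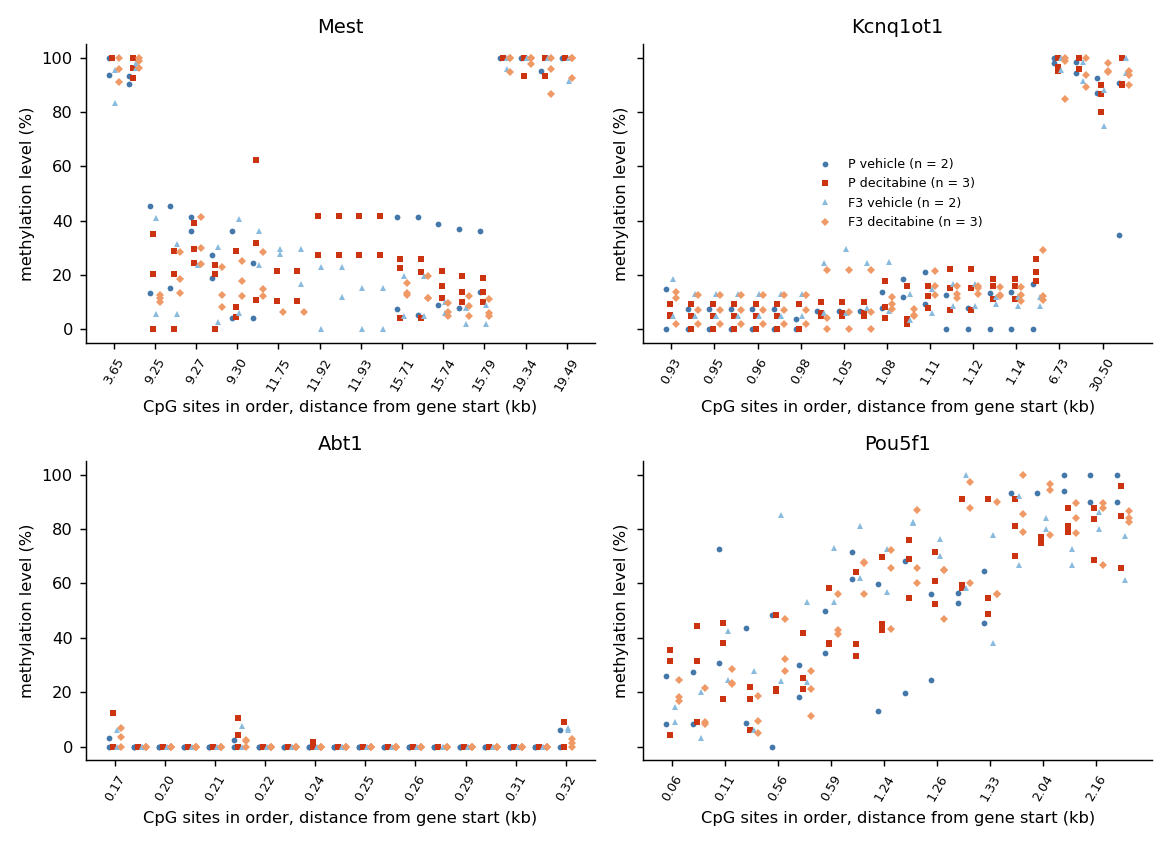
Methylation level in percent (vertical axis) of every CpG of Mest, Kcnq1ot1, Abt1 and Pou5f1 with at least 10 reads, with the CpGs in order along the gene, evenly spaced, and their distance from the gene start in kb (horizontal axis), 1 point per animal and a colour and symbol per group. Abt1 stayed near 0%, Kcnq1ot1 was low around 1 kb and high farther inside, and Pou5f1 went from lower levels at its start to mostly higher ones about 2 kb inside.

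At its annotated start Abt1 was practically free of methylation. The block at 0.25 kb (19 CpGs in coding sequence and intron, 174 to 323 bp inside the gene) ranged from 0% in D13 to 1.11% in D11. Vehicle and decitabine groups had 0.312 ± 0.00925% (SD, n = 2) and 0.665 ± 0.587% (n = 3) in the P-generation and 0.688 ± 0.0798% (n = 2) and 0.328 ± 0.222% (n = 3) in the F3-generation. The F3 groups did not overlap, with the descendants of decitabine-treated males lower, but the difference was under 1 percentage point (exact permutation test, two-sided, p = 0.2, where 10 splits of 5 animals cannot give less than 0.1). The 3 CpGs that lie inside CCGG held 65 methylated of 2036 reads over the 10 animals (3.19%), and the other 16 held 1 of 10188 (0.00982%). The CCGG sites were the higher ones in 9 of 10 animals, and in the exception, D13, 0 of 83 reads were methylated. Taken as separate reads, these allow a level of up to 3.61%. Reads are summed over CpGs here, a read counting once for each CpG it spans, so this limit may be too low.

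The Tcf7l1 gene was unmethylated at its start and methylated in the remainder. The block over the start (66 CpGs from 150 bp upstream to 762 bp inside, over UTR, coding sequence and intron) had levels between 0.380% in F3D1 and 1.21% in F3D7. The promoter window of RefSeq (chr6:72788996-72789295) reaches from 250 bases before to 50 after the RefSeq start. That start lies inside the gene, downstream of the gene start from which distances are counted here. The window holds 34 CpGs, and 7.47% of 27025 promoters of that length hold at least as many. In the block over the gene start, 35 of the 66 CpGs had no methylated read in any animal. As in Abt1, the 10 CpGs inside CCGG were higher, and this held in 10 of 10 animals. With reads summed over CpGs in the same way, they had 260 methylated of 7799 (3.33%), against 46 of 38153 (0.121%) at the other 56. The source of the difference at MspI sites was not tested.

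Over the remaining 91 CpGs of Tcf7l1 the mean level was 80.9 to 88.5%. P-generation males had 81.6 and 86.3% under vehicle and 81.6, 80.9 and 84.2% under decitabine. F3 males had 85.3 and 87.5% as descendants of vehicle-treated males and 87.3, 87.1 and 88.5% as descendants of decitabine-treated males. These groups overlapped in both generations (exact permutation test, two-sided, p = 0.5 in each). Of the 17 blocks inside the gene, 13 had a mean level over 80%. The block nearest to the amplicon, at 158.21 kb in coding sequence, 3273 bp from the amplicon, had 93.9 and 95.9% in vehicle-treated and 92.6, 84.7 and 90.3% in decitabine-treated males, a difference of -5.73 percentage points (SE 3.72, limma adjusted p = 0.757).

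**Figure D2:**
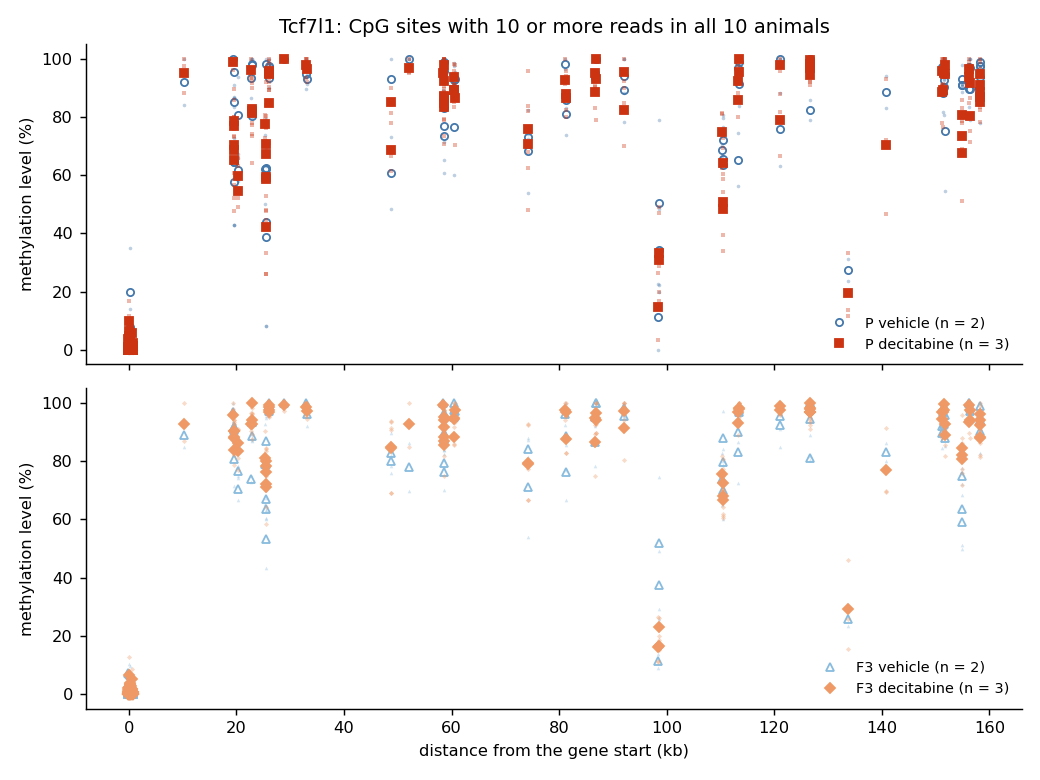
Methylation level in percent of the Tcf7l1 CpGs covered in all 10 animals against the distance in kb from the gene start, for the P-generation (top) and the F3-generation (bottom), with small pale points for animals and large ones for group means. Levels were near 0% around the start and mostly over 80% along the gene, with intermediate values at several places and, inside the gene, some of the lowest at the 98.49 kb block.

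The intronic block at 98.49 kb (3 CpGs, chr6:72690725-72690802) was the lowest of these and had the largest spread of the Tcf7l1 blocks, with an SD of 11.4 percentage points over 10 animals. It had 42.4% in C8 and 21.6% in C14, 28.8, 37.0 and 13.3% in D10, D11 and D13, 45.8% in F3C9 and 21.4% in F3C30, and 16.7, 17.5 and 21.5% in F3D1, F3D7 and F3D31. The highest animals were 1 vehicle-treated male and its F3 descendant, and vehicle and decitabine groups overlapped in both generations. The P difference was -5.68 percentage points (SE 9.86, adjusted p = 0.937) and the F3 difference -15.1 (SE 9.86, adjusted p = 1) in limma. Without C8 the P difference was 4.70, of the opposite sign.

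The block at 154.87 kb (3 CpGs in an intron, sequence above) showed the largest differences of Tcf7l1 in both generations, and they ran in opposite directions. The vehicle-treated males C8 and C14 had 90.5 and 93.0%, and the decitabine-treated males D10, D11 and D13 had 65.9, 78.0 and 77.8%. In the F3-generation the descendants of vehicle-treated males, F3C9 and F3C30, had 59.6 and 72.2%, and F3D1, F3D7 and F3D31 had 77.1, 83.7 and 86.7%. Vehicle and decitabine groups did not overlap, decitabine minus vehicle being -17.9 percentage points in the P-generation (SE 5.22, unadjusted p = 0.0111, adjusted p = 0.563) and 16.5 in the F3-generation (SE 5.22, unadjusted p = 0.0157, adjusted p = 1). The vehicle groups of the generations differed by -25.8 percentage points (SE 5.72, unadjusted p = 0.00274, adjusted p = 0.885), which was more than either difference between treatments. None of these passed the adjusted threshold of 0.05.

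Pou5f1 was more methylated farther inside the gene than at its start. The block at 0.11 kb (4 CpGs, coding sequence and UTR, 58 bp from the amplicon) had 42.4% in C8 and 32.8% in D11, and 13.2 to 29.7% in the others, and its P difference of -2.91 (SE 8.88, adjusted p = 0.974) was 11.3 without C8. The intronic block at 0.6 kb (4 CpGs) had 29.3 to 73.1%, that at 1.28 kb (5 CpGs, intron) 35 to 80.6% and that at 2.15 kb (3 CpGs, intron) 71.3 to 100%. The last of these blocks was higher than the first in 10 of 10 animals, and each block was higher than the one before in 4 of 10, C14, F3D1, F3D7 and F3D31. In C8 the level at 0.6 kb, 31%, was below that at 0.11 kb.

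The 1.28 kb block had the largest SD among the blocks of the 5 genes, 13.8 percentage points. C8 and C14 had 35 and 57.2% and D10, D11 and D13 52.1, 59.3 and 77.7%, so that the groups overlapped and decitabine was higher by 16.9 (SE 10.5, adjusted p = 0.750). The difference was 5.79 without C8. F3C9 and F3C30 had 62.4 and 80.6%, and F3D1, F3D7 and F3D31 58.9, 76.8 and 68.0%. At the 0.6 kb block the F3 difference was -15.3 percentage points (SE 11.6, adjusted p = 1) and came from F3C9, which had 73.1% against 40.8% in F3C30 and 49.7, 37.8 and 37.5% in the other group. Without F3C9 it was 0.841.

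At 2.15 kb the pattern was like that of the Tcf7l1 block at 154.87 kb, and this block is named because of it, after its values were seen. The vehicle-treated males had 100 and 91.3%, the decitabine-treated males 83.8, 89.1 and 71.9%, F3C9 and F3C30 76.7 and 71.3%, and F3D1, F3D7 and F3D31 87.4, 85.4 and 77.3%. Groups did not overlap, and decitabine minus vehicle was -14.1 percentage points in the P-generation (SE 5.63, unadjusted p = 0.0412, adjusted p = 0.656) and 9.36 in the F3-generation (SE 5.63, adjusted p = 1). Lowest coverage was 14 reads in a CpG of this block, and C8 had a median of 17 reads there. Without C8 the P difference was smaller, with 91.3% in C14 against a mean of 81.6% in the decitabine-treated males. Averaged over the gene, Pou5f1 had 49.2 ± 1.64% (n = 2) and 50.6 ± 2.16% (n = 3) in the P-generation and 55.1 ± 3.69% (n = 2) and 51.6 ± 1.74% (n = 3) in the F3-generation, with adjusted p-values of 0.892 for P and 1.00 for F3.

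Kcnq1ot1 was low in the region that holds the Lit1 amplicon and high farther inside. The block at 1.05 kb (15 CpGs, 932 to 1174 bp inside the transcript, within Kcnq1) had 2.76% in C8 and 10.7% in C14, 13, 8.37 and 7.59% in D10, D11 and D13, 12.2 and 8.64% in F3C9 and F3C30 and 10.7, 9.01 and 11.7% in F3D1, F3D7 and F3D31. C8 was the lowest animal, and the groups overlapped in both generations. For the 8 CpGs of the Lit1 amplicon alone, levels were 5.18 and 13.1% under vehicle, 16.1, 11.9 and 13.6% under decitabine, 10.9 and 11.8% in F3C9 and F3C30, and 12.9, 15.1 and 11.1% in F3D1, F3D7 and F3D31. The differences of 4.71 and 1.66 percentage points in P and F3 did not exceed the spread between animals (exact permutation test, two-sided, p = 0.3 and 0.4), and the former was 0.743 without C8.

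Inside Kcnq1ot1, the 2 CpGs at 6727 to 6801 bp had 87.0 to 100%. The 2 CpGs at about 30 kb had 60.8% in C8 and 84.9 to 96.4% in the other 9 animals. The CpG with the largest P difference lies here (chr7:143265990-143265990), where C8 had 9 methylated of 26 reads (34.6%, 95% Wilson interval 19.4 to 53.8%), C14 had 90.6% and the decitabine-treated males 89.8, 90.2 and 100%. The pooled difference was 19.6 percentage points, below the threshold of 25, and 1.23 without C8. Averaged over the gene, Kcnq1ot1 had 23.6 ± 6.79% (SD, n = 2) and 27.3 ± 1.82% (n = 3) in the P-generation and 27.8 ± 1.63% (n = 2) and 28.1 ± 0.481% (n = 3) in the F3-generation. The P difference of 3.72 (SE 2.57, adjusted p = 0.758) became -1.09 without C8.

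Mest showed low levels at both blocks, with C8 as the highest animal in each. The block at 15.75 kb (5 CpGs, intron, 1199 to 1278 bp after a transcript start at chr6:30738055-30738055 and 2136 bp from the amplicon) had 38.9% in C8 and 8.72% in C14, 20.2, 15.9 and 11.8% in D10, D11 and D13, 10.8 and 6.60% in F3C9 and F3C30, and 10.7, 9.63 and 10.6% in F3D1, F3D7 and F3D31. Apart from C8 the 9 animals lay between 6.60 and 20.2%. The P difference was -7.83 (SE 7.72, adjusted p = 0.855) and reversed to 7.26 without C8. The F3 difference was 1.62 (SE 7.72, adjusted p = 1).

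The Mest block at 9.29 kb (6 CpGs, intron) lies 577 bp before another transcript start at chr6:30733454-30733454. Levels were 35.9 and 16.1% in C8 and C14, 21.8, 32.8 and 10.1% in D10, D11 and D13, 33.9 and 11.2% in F3C9 and F3C30, and 14.7, 22.7 and 19.9% in F3D1, F3D7 and F3D31. The spread within the vehicle groups was nearly as wide as that over all animals, and neither the P difference of -4.42 nor the F3 difference of -3.41 passed the test (SE 9.41 each, limma adjusted p = 0.956 and 1). Without C8 the P difference was 5.45. Levels were 90.7 to 100% at 3645 to 3722 bp in all animals and 93.3 to 100% at 19317 to 19489 bp in the animals covered there, whereas the CpGs at 11747 to 11961 bp, covered in 4 or 5 animals, had 2.94 to 41.7%. Over the gene, Mest had 35.7 ± 14.8% (n = 2) and 31.2 ± 6.49% (n = 3) in the P-generation and 28.1 ± 7.99% (n = 2) and 27.7 ± 1.39% (n = 3) in the F3-generation.

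**Figure D3:**
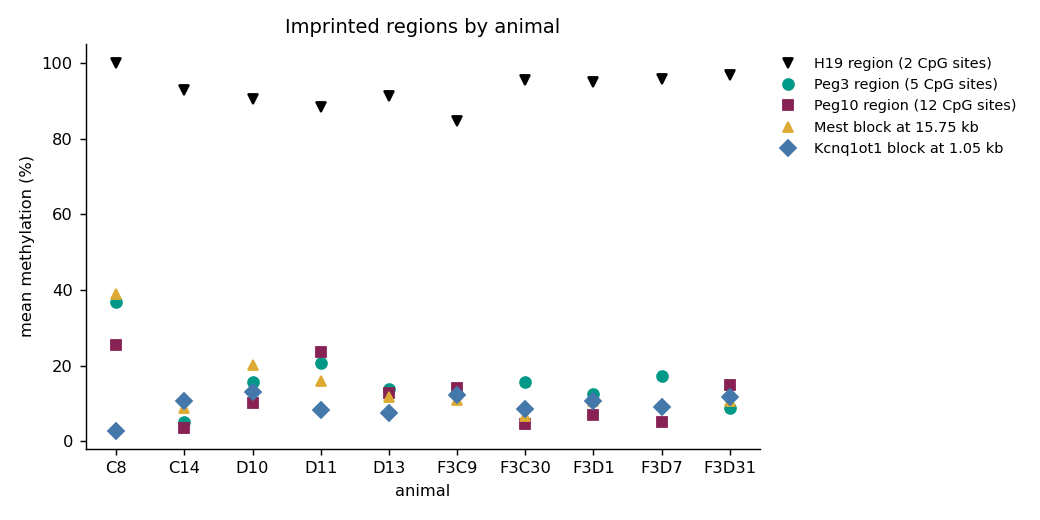
Mean methylation level in percent of the imprinted regions in each of the 10 animals, which stand on the horizontal axis. C8 had the highest levels at Peg3, Peg10 and the Mest block at 15.75 kb, and the lowest at the Kcnq1ot1 block at 1.05 kb.

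C8, which was high at Peg3, Peg10, Mest and the start of Pou5f1, was thus low at Kcnq1ot1. The part of the Peg3 and Peg10 levels of C8 in the P differences of these genes was not tested.

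Among single CpGs, 2 of 239 CpGs of the 5 genes tested in the P-generation were called, at a pooled difference of at least 25 percentage points and q under 0.01, against 0.705% of 934227 CpGs of the data set. In the F3-generation 1 of 247 was called, against 0.237% of 1054272. By direction, 1 CpG was higher (background 0.337%) and 1 lower (0.368%) with decitabine in P, and 0 were higher (0.159%) and 1 lower (0.0774%) in F3. Read against these shares, the counts were near the background. The unadjusted p of this test, from reads pooled over animals, was under 0.05 for 47 of 239 and 54 of 247 CpGs. The share of all CpGs with such a p was not counted, so these numbers cannot be compared with a background. The sequences of both called Tcf7l1 CpGs are given with 30 bases on each side and the CpG in capitals, at chr6:72763757-72763818 and chr6:72690721-72690782 on the plus strand of mm10.
Tcf7l1 CpG at 25467 bp: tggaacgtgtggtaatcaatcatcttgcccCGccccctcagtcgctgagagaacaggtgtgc
Tcf7l1 CpG at 98503 bp: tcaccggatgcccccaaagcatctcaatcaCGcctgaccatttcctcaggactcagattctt

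The Tcf7l1 CpG at 25467 bp (intron) was hypomethylated after decitabine in the P-generation, with a difference of -32.3 percentage points of the pooled reads (q = 0.00117). It had 12 methylated of 12 reads in C8, 28 of 29 in C14, 9 of 27 in D10 (33.3%, 95% Wilson interval 18.6 to 52.2%), 23 of 25 in D11 and 13 of 17 in D13. The F3 groups overlapped at 70.0 to 94.7%. The call rested on D10, without which the difference fell to -11.8 percentage points (q = 0.268), and it was also lost without C8 (q = 0.0267) or C14 (q = 0.0244).

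At 98503 bp, in the block at 98.49 kb, the Tcf7l1 CpG was lower in F3 descendants of decitabine-treated males with a difference of -33.9 percentage points (q = 2.21e-06). F3C9 had 38 of 51 reads methylated (74.5%) and F3C30 17 of 58 (29.3%), while F3D1, F3D7 and F3D31 had 18.6, 15.6 and 15.2%. C8, the ancestor of F3C9, had 78.8% and the other P-generation males 20 to 49.0%. Without F3C9 the difference was -12.7 (q = 0.422).

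The Mest CpG at 9330 bp, the last of the 9.29 kb block, was hypermethylated after decitabine in the P-generation by 25.5 percentage points (q = 0.00333). C8 and C14 had 8 of 33 and 2 of 50 reads methylated, and D10, D11 and D13 had 4 of 37, 28 of 45 and 7 of 22. The groups overlapped, since D10 had 10.8% and C8 24.2%. The call was lost without D11 (6.60 percentage points, q = 0.745) or without C14 (13.3 percentage points, q = 0.481). In the genes without a called CpG, the largest differences were 23.7 percentage points in P at the Pou5f1 CpG at 1247 bp (q = 0.00739) and -19.9 in F3 at its CpG at 583 bp (q = 5.80e-05), 14.8 in F3 at the Kcnq1ot1 CpG at 30499 bp (q = 0.00899), and 4.94 and -4.84 in Abt1 (q = 0.355 and 0.236). The Pou5f1 CpG at 1247 bp had a P difference of -1.50 without C8, and the F3 differences at 583 bp and at the Kcnq1ot1 CpG were -2.78 and 7.53 without F3C9. The P difference of 4.94 in Abt1 was -1.64 without D10. The pooled test does not account for how much animals of a group vary, and with an overdispersion term (F test) 0 CpGs of the 5 genes were called in either generation, 1 and 3 having an unadjusted p under 0.05. In simulated P data that test recovered 0 of 200 changed CpGs of 40 percentage points, so that its result gives no information at this group size.

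Of the 26 blocks, limma called 0 in the P- and 0 in the F3-generation, with 2 and 1 at an unadjusted p under 0.05, where 7.37% and 2.9% of all 72858 blocks had such a p. The background of calls was 0.00137% in P and 0 in F3. For the difference between the generations' differences (interaction) 0 of 26 were called and 2 had an unadjusted p under 0.05 (5.47% of all blocks), and for F3 vehicle against P vehicle 0 were called and 3 had such a p (5.05%). The groups did not overlap in 5 of 26 blocks in the P-generation (2 higher and 3 lower with decitabine) and in 9 of 26 in the F3-generation (5 higher and 4 lower), against 19.4% of all blocks in each generation. The opposite order in both generations without overlap was found in 2 of 26 blocks and 2.08% of all. The P differences of the 26 blocks had a median of -1.74 percentage points, 16 of them negative, and the F3 differences one of -0.179, 13 negative, beside medians of -0.289 and 0.117 over all blocks.

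**Figure D4:**
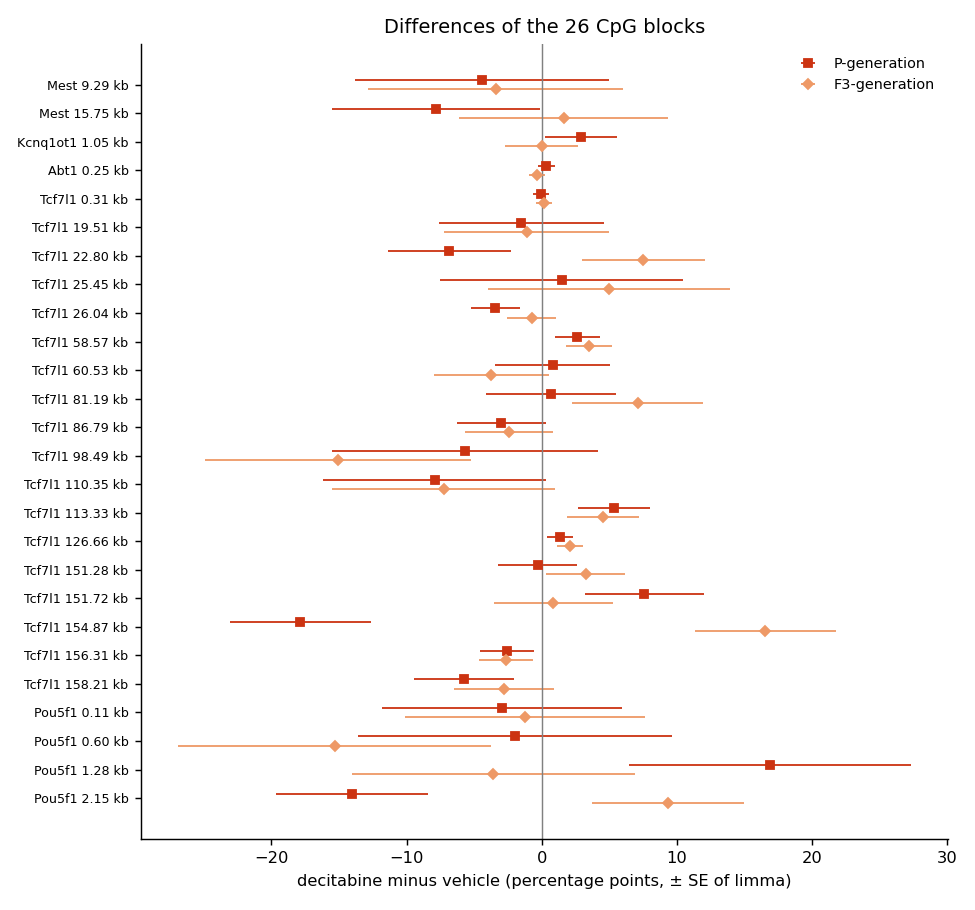
Decitabine minus vehicle in percentage points for the 26 blocks of the 5 genes, with squares for the P-generation, diamonds for the F3-generation and bars for the SE of limma. Most blocks lay near 0, and the Tcf7l1 block at 154.87 kb and the Pou5f1 block at 2.15 kb had negative P and positive F3 differences.

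**Figure D5:**
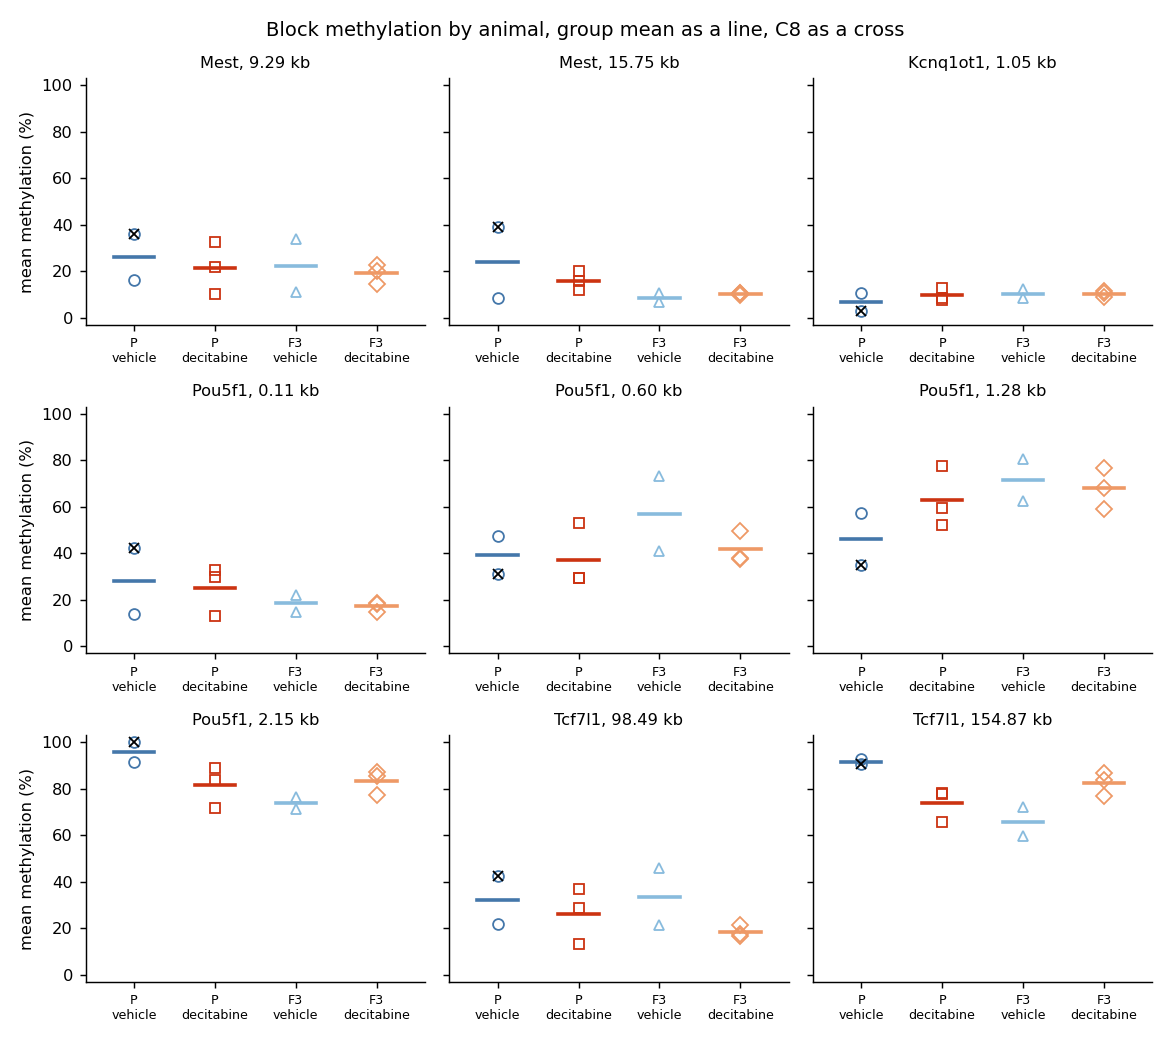
Mean methylation level in percent (vertical axis) of 9 blocks, 1 open symbol per animal, by group (horizontal axis), with horizontal lines for group means and a black cross for C8. At the Tcf7l1 block at 154.87 kb both vehicle-treated males lay above all decitabine-treated males, and in the F3-generation the order was opposite.

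Over whole genes, none of the 5 members was called by limma in either generation, where 1 of 21469 gene regions (0.00466%) was called in P and 0 in F3. No member had an unadjusted p under 0.05 in P or F3, and 1721 and 537 of all gene regions did. The lowest unadjusted p of the members was 0.0276, for Pou5f1 in F3 vehicle against P vehicle (5.86 percentage points, SE 2.12, adjusted p = 0.912). The P difference was -1.02 in Tcf7l1 (SE 0.894, adjusted p = 0.813) and -4.46 in Mest (SE 6.61, adjusted p = 0.901), which without C8 were -2.35 and 6.03. The F3 difference was 0.809 and -0.381 (adjusted p = 1.00 each).

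Lists of genes related to the members by pathway or position were counted in the same fit. The TCF/LEF, Kcnq1 domain, Mest domain and pluripotency lists include Tcf7l1, Kcnq1ot1, Mest and Pou5f1 themselves. Of the TCF/LEF family (4 genes) and the Wnt effectors (5 genes) 0 were called in either generation, with median P differences of -1.07 and -0.153 percentage points and F3 medians of 0.111 and 0.290. All 4 TCF/LEF genes, Tcf7l1 among them, had P differences below 0, with -1.66 in Lef1 (limma unadjusted p = 0.0139, adjusted p = 0.519). Axin2, a negative regulator and target gene of Wnt signalling, had one of -2.30 (unadjusted p = 6.16e-04, adjusted p = 0.267). Both are named after the values were seen, as the only genes of their lists with an unadjusted p under 0.05 in P, which 8.02% of all gene regions had. In Axin2 the vehicle-treated males had 16.0 and 16.0%, the decitabine-treated males 13.9, 13.5 and 13.7%, and all F3 males 15 to 16.5%. The Kcnq1 domain list (10 of 11 genes tested, Ins2 not) and the Mest domain list (6 of 7, Tsga13 not) had 0 calls. Their P medians, with Kcnq1ot1 and Mest included, were 0.199 and -0.906 and their F3 medians 0.382 and -0.230.

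For 8 of 9 pluripotency genes (Nanog not tested) the P median was -0.354 and the F3 median 0.0705, with 0 called. Klf4, a factor that works with Pou5f1 in reprogramming, had a P difference of -3.11 percentage points (unadjusted p = 0.00218, adjusted p = 0.346), with 8.05 and 6.79% under vehicle and 3.98, 4.75 and 4.19% under decitabine. It too is named after the values were seen, as the only 1 of these 8 with an unadjusted p under 0.05 in P. In the Kcnq1 domain, Mest domain and POU family lists 0 genes had such a p. The 7 POU family genes had medians of -0.258 and 0.00951 and 0 calls. Over all gene regions the medians were -0.215 and 0.111. Members of the lists below 0 in P numbered 4 of 4, 4 of 5, 5 of 10, 4 of 6, 4 of 8 and 5 of 7 in the order given, and 13229 of 21469 of all gene regions.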

How the data were processed

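Spermatozoal DNA of 10 male mice was analysed by RRBS. The authors processed reads with CASAVA 1.8.2, Trim Galore 0.3.3, cutadapt 1.1 and Bismark 0.10.1 against mm10, per the labels, and the deposited files hold, for every CpG cytosine, the count of methylated and unmethylated reads, per strand and animal, neither normalized nor pooled. Inserts were selected for 40 to 280 bp.

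The strands of a CpG were summed and CpGs with at least 10 reads kept. Where each of the 5 animals of a generation had these reads, a CpG was tested with a pooled logistic model and likelihood ratio test (Benjamini-Hochberg), called at 25 percentage points and q under 0.01. Mean levels of gene regions (at least 5 CpGs covered in 10 animals) and blocks (at least 3 CpGs, gaps up to 300 bp) were compared with limma 3.58.1 (R 4.3.3, trend off, 4 groups, adjusted p under 0.05). Single values were compared by two-sided exact permutation over 10 splits, with a smallest p of 0.1. Python 3.11.15, scipy 1.17.1 and pandas 2.3.3 were used. Replicates are separate animals. Samples were grouped by the labels for agent and generation, and ancestors were taken from the study. Annotation was from GENCODE for GRCm38, amplicons were located by the primers with up to 4 mismatches, and promoters were from RefSeq (GRCm38.p6).

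On simulated data the CpG test recovered 189 of 200 changes of 40 percentage points in 50000 CpGs of the P comparison and called 1 unchanged CpG. These counts were drawn without any spread between the animals of a group. The simulation therefore does not show how often such spread leads to a call. In 21469 gene regions limma recovered 90 of 100 changes of 10 and 99 of 100 of 20 percentage points and called 11 unchanged regions. Those changes were placed only in regions with a small spread between animals, and blocks were not simulated.

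The members and lists were chosen with earlier results of these data known. Named were the blocks nearest to start and amplicon, with the largest difference or the largest SD, and called CpGs or, in genes without one, those with the largest difference. The alternatives were other coverage minimums, CpG sets, gaps and scales, pooled reads, an overdispersion term, a threshold of 15 percentage points and leaving out each animal.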

Additional observations from a re-analysis of the deposited data

Results flagged for a closer look

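In 2 of the 26 blocks the decitabine groups lay below the vehicle groups in the P-generation and above them in the F3-generation, without overlap between animals. Among all blocks, 2.08% had groups apart in both generations and in opposite order. Both blocks were picked for this separation, so the interaction p-values and ranges given here follow in part from the selection. At the Tcf7l1 block at 154.87 kb the F3 difference exceeded the P difference by 34.4 percentage points (limma interaction, SE 7.39, unadjusted p = 0.00231, adjusted p = 0.718). Leaving out single animals, its P difference was between -19.9 and -13.8 and its F3 difference between 10.2 and 22.8.

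At the Pou5f1 block at 2.15 kb the same contrast was 23.4 percentage points (SE 7.96, unadjusted p = 0.0216, adjusted p = 0.846). In both blocks the vehicle groups of the generations differed in level, by -25.8 and -21.7 percentage points (unadjusted p = 0.00274 and 0.00976, adjusted p = 0.885 each).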

How the results depend on the processing

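No paired analysis was run. The labels give no pairs, and by the descent taken from the study F3C9 and F3C30 could be matched to C8 and C14, while D13 has no descendant here. The F3 animals descend from the P animals, and contrasts across generations treated them as independent, without a term for descent. Contrasts within F3 likewise treated F3D1 and F3D31, which share the ancestor D10, as independent. Of the CpG calls, the 2 in P became 1 of 172 at 20 reads, where 0.524% of all tested CpGs were called. They became 0 with overdispersion (0% of all) and 7 of 239 at 15 percentage points (1.62% of all). The 1 in F3 became 0 with overdispersion (0% of all) and 4 of 247 at 15 percentage points (0.693% of all). With an animal of a vehicle group left out, 1 remains in that group. The share called among all tested CpGs then rose or fell along with the calls in these genes, so the counts without such an animal are not particular to them. Leaving out single animals gave 1 to 14 calls in P (14 without C14) and 0 to 7 in F3 (0 without F3C9, 7 without F3C30). Without C14, which leaves C8 as the only vehicle-treated male and assumes that it varies like the other groups, limma called 422 gene regions and 3128 blocks in P, against at most 2 and 0 without any other animal. The P difference was then -22.9 in the Mest block at 15.75 kb and 16.5 in the Tcf7l1 block at 151.72 kb. Leaving out D10, D11 or D13 gave 0 calls among the 26 blocks in P. Also without C14, F3 vehicle minus P vehicle was 8.98 in Kcnq1ot1, -30.2 in the Mest block at 15.75 kb and 14.5 in the Tcf7l1 block at 151.72 kb. The interaction of that Tcf7l1 block was then -15.6. The following values changed sign, and the cause was not tested. With CpGs covered in 5 animals the F3 difference of Kcnq1ot1 was -0.706. With pooled reads the F3 difference of Tcf7l1 was -0.675, its interaction -0.00486 and its F3 vehicle against P vehicle -2.01. With gaps of 1000 bp the Pou5f1 blocks at 0.11, 0.6, 1.28 and 2.15 kb joined into 1, which had a P difference of 1.43. Apart, the blocks at 0.11, 0.6 and 2.15 kb had negative P differences and that at 1.28 kb a positive one. The block at 2.15 kb is not among the block values counted below. Leaving out single animals gave the following ranges of differences in percentage points. For gene means in P they were -14.9 to 6.03 in Mest, -1.09 to 8.52 in Kcnq1ot1 and -2.35 to 0.310 in Tcf7l1. In F3 they were -6.03 to 5.27 in Mest and -0.826 to 1.48 in Kcnq1ot1. For the interaction they were -6.41 to 14.6 in Mest and -8.19 to 1.41 in Kcnq1ot1. For F3 vehicle against P vehicle they were -18.1 to 2.91 in Mest, -0.625 to 8.98 in Kcnq1ot1 and -0.00941 to 2.65 in Tcf7l1. For blocks in P they were -14.3 to 5.45 (Mest 9.29 kb), -22.9 to 7.26 (Mest 15.75 kb), -1.07 to 6.87 (Kcnq1ot1), -0.141 to 0.0425 (Tcf7l1 start), -16.1 to 4.70 (Tcf7l1 98.49 kb), -17.1 to 11.3 (Pou5f1 0.11 kb) and -10.2 to 6.24 (Pou5f1 0.6 kb). For blocks in F3 they were -14.8 to 7.95 (Mest 9.29 kb), -0.468 to 3.71 (Mest 15.75 kb), -1.8 to 1.8 (Kcnq1ot1), -0.107 to 0.309 (Tcf7l1 start), -6.96 to 1.41 (Tcf7l1 158.21 kb), -4.82 to 2.35 (Pou5f1 0.11 kb), -31.5 to 0.841 (Pou5f1 0.6 kb) and -12.6 to 5.50 (Pou5f1 1.28 kb). Of 104 other block values and 70 other gene values under settings that kept all animals, all but 2 and 4 kept direction and side of the threshold. With 2 against 3 animals a single value cannot reach a p below 0.1, and 10 reads per CpG leave wide intervals.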

Other observations

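A stretch of Mest between the 2 blocks was covered in some animals only. The 2 CpGs at 11747 to 11783 bp had levels of 10.3% in D11, 21.4% in D13, 29.4% in F3C9, 22.2% in F3C30 and 6.25% in F3D1, from 14 to 29 reads. The 4 CpGs at 11923 to 11961 bp had 41.7% in D11, 27.3% in D13, 2.94% in F3C9 and 19.2% in F3C30, from 11 to 17 reads. No group could be compared there.

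The 7 CpGs of the Kcnq1ot1 block outside the Lit1 amplicon had 0% in C8 and 0.752% in D13, and 13.8% in F3C9 and 12.4% in F3D31. Most of these CpGs share 1 set of reads, of which C8 had 16, so that a level of 0% in C8 rests on few fragments.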
